A study of Mus musculus with 8 samples.

Results

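The genes examined here were 10 genes of dead-cell uptake and scavenging, out of the 31053 genes in the deposited table: the bridging proteins Mfge8, Gas6 and Pros1, the receptor tyrosine kinases Mertk and Axl, the scavenger receptors Msr1, Mrc1 and Stab1, and the lipoprotein receptors Lrp1 and Scarb1. They were chosen by name for their roles, with earlier results of these data known. All 10 had a row in the table and enough counts to be tested. Brown adipose tissue (BAT) of 4 WT and 4 Ucp1Δ/Δ mice was profiled by bulk RNA-seq. The Ucp1Δ/Δ mice, labelled ATGLKO, carry floxed Pnpla2 alleles and a Cre recombinase driven by Ucp1, so that ATGL, the triglyceride lipase encoded by Pnpla2, is lost in adipocytes that have expressed Ucp1 and not in the other cells of the tissue. All mice were on the C57BL6/J background and 10 weeks old per the labels, whereas the study's legend gives a younger age. The labels name both BAT and the stromal vascular fraction, the cells other than adipocytes that a digested tissue yields. Adipocyte markers were abundant in every library, with Ucp1 between 1291 and 4110 CPM in WT and between 1421 and 2821 CPM in Ucp1Δ/Δ mice, where CPM is counts scaled to the TMM-adjusted library size.

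Efferocytosis is the engulfment of dying cells by phagocytes. A dying cell exposes phosphatidylserine, which soluble bridging proteins bind: MFG-E8, the product of Mfge8, links it to integrins, and Gas6 and protein S, the product of Pros1, link it to the TAM receptors Tyro3, Axl and MerTK. Scavenger receptors take up modified lipoproteins, glycoproteins and cell debris, and several of them are used as macrophage markers in adipose tissue.

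Total counts ranged from 2017697 to 3115956 per mouse, at which 3 counts correspond to between 0.933 and 1.53 CPM, a floor that covers counting error only. Pnpla2 (chromosome 7 of GRCm38, from 141455198 to 141460743, plus strand) was counted at 2837, 2702, 2961 and 3152 CPM in WT replicates 1 to 4 and at 514, 448, 403 and 531 CPM in Ucp1Δ/Δ replicates 1 to 4, in the direction the labels give. Of the 8 macrophage markers 7 were higher in Ucp1Δ/Δ mice, beside 13.3% of all genes tested, and 1, Fcgr1, was not tested. Adgre1, Cd68 and Itgam had WT mice under the cut-off for testing, 4.22 CPM, and passed it through the Ucp1Δ/Δ mice. The summed level of all 8 macrophage markers was between 123 and 146 CPM in WT and between 819 and 1373 CPM in Ucp1Δ/Δ mice. All 4 fibroblast markers were higher as well, with sums of 250 to 321 and 575 to 969 CPM. Of these, Pdgfra and Lum also passed that cut-off through the Ucp1Δ/Δ mice. Of the brown adipocyte markers 3 of 6 were lower, beside 7.63% of all genes tested. Skeletal muscle markers ran from 11.4 to 976 CPM in WT and from 39.3 to 1270 CPM in Ucp1Δ/Δ mice, highest in WT replicate 1 and Ucp1Δ/Δ replicate 2. In whole tissue, more cells of a type and more RNA per cell cannot be told apart, and the part of these marker levels in the results below was not tested beyond the ratios given there.

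The bases just upstream of the transcription start were read for the members, since most of them rose together. RefSeq promoters on GRCm38.p6 were matched for 8 of the 10, the exceptions being Msr1 and Scarb1, and the 250 bases before the start were searched on both strands. The hexamer GAGGAA, the core bound by PU.1, a transcription factor of macrophages, was present in 4 of the 8, in 3 copies in Mrc1 and 1 copy each in Mfge8, Axl and Stab1. It occurred in 23.3% of all 32851 promoters of that length. The Sp1 motif GGGCGG was present in 7 of the 8, Stab1 being the exception, against 32.7% of all promoters. The AP-1 motif TGANTCA (6.75% of all promoters), the E-box CACGTG (6.02%) and the nuclear receptor half-site AGGTCA (14.0%) were in 0 of the 8. Matches of different motifs may share bases, and a match is a description of the letters, not of binding. Below are the upstream sequences of Mrc1 (chr2:14229164-14229413, plus strand), Stab1 (chr14:31168642-31168891, minus strand) and Mfge8 (chr7:79149061-79149310, minus strand), shown because they hold the hexamer, in scavenger receptors that rose and in the bridging protein that rose most. Each is written 5′ to 3′ on the strand of its gene, with GAGGAA or its reverse complement in capitals.
Mrc1: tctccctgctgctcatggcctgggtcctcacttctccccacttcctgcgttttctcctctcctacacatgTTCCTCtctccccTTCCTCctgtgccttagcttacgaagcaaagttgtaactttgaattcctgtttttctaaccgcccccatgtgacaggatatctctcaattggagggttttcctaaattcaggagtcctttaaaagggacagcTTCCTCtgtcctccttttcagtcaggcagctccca
Stab1: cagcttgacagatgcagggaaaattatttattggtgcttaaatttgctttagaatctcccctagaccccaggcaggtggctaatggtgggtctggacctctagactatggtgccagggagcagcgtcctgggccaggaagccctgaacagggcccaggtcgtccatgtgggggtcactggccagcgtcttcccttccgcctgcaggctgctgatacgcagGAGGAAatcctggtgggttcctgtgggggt
Mfge8: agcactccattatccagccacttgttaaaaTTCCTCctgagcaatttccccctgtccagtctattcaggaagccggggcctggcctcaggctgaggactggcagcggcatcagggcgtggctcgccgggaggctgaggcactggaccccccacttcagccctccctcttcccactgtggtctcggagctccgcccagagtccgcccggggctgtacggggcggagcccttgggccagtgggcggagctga

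Of the 10 members, 8 were higher in the Ucp1Δ/Δ tissue, 0 were lower and 2, Mertk and Scarb1, were not called. Of the 8, Gas6, Msr1 and Mrc1 reached the filter's cut-off of 4.22 CPM, 10 counts at the median library, in all 4 mice of the Ucp1Δ/Δ genotype only. They could therefore be tested only through the group in which they were high, so the count of 8 rests in part on the filter. The test was edgeR's quasi-likelihood test, called at a Benjamini-Hochberg adjusted p under 0.05 over all 8930 genes tested, of which 13.3% were higher and 7.63% lower. With at least 10 counts required in every mouse these 3 were not tested and 6 members were higher, Mertk among them. At an unadjusted p under 0.05, 9 members were higher and 0 lower, and DESeq2's Wald test called 8 higher and 0 lower. The members' median log2 fold change was 1.89, beside -0.0087 over all genes tested, and 7 of the 8 called exceeded a log2 fold change of 1. In 8 members each Ucp1Δ/Δ mouse was above each WT mouse, which held for 14.4% of the genes tested. Ucp1Δ/Δ replicate 2 had the highest level of the 8 mice in 7 of the 10 members, and it also had the highest macrophage and skeletal muscle marker sums.

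**Figure D1:**
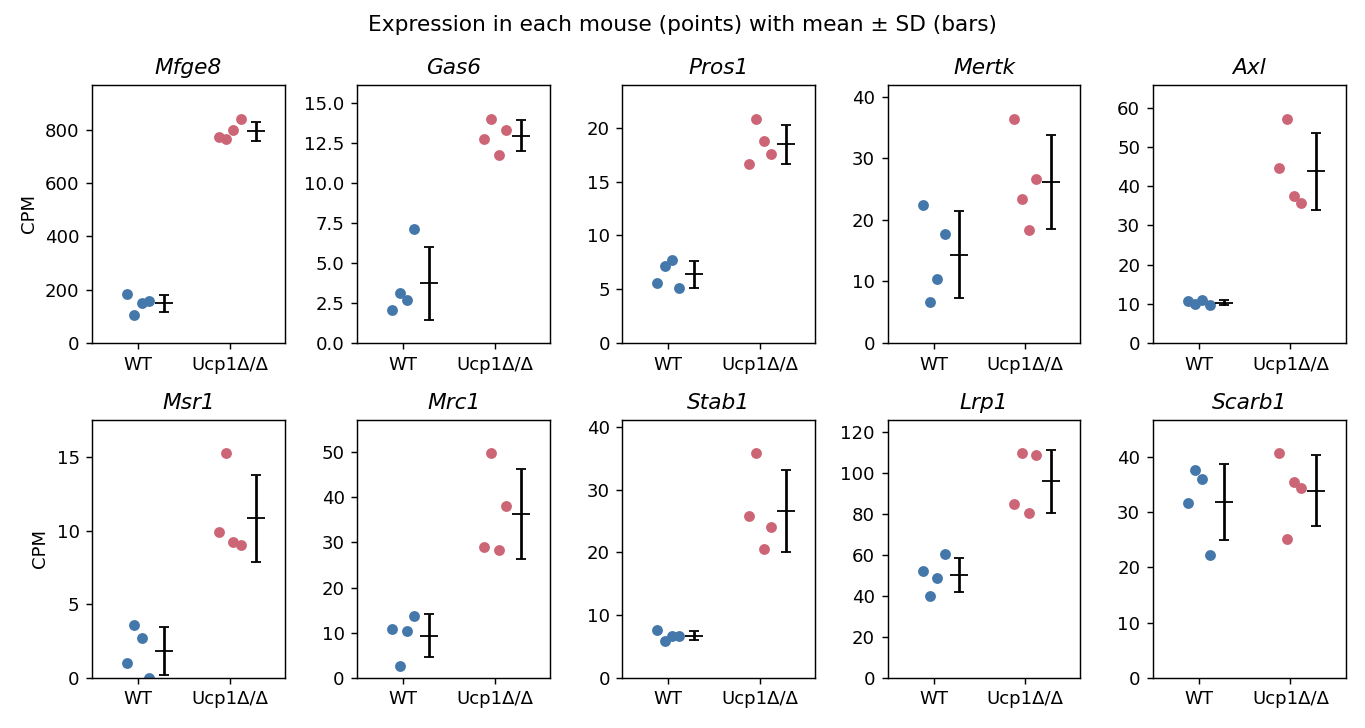
Level of each member in CPM (vertical axes, linear and starting at 0, each with its own scale) in WT (blue) and Ucp1Δ/Δ (red) mice; points are mice and black bars are means with SD (n = 4). The groups are separate in 8 panels and overlap in those of Mertk and Scarb1.

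Among the bridging proteins all 3 rose. Mfge8 (ENSMUSG00000030605, chromosome 7, from 79133768 to 79149060, minus strand) stood at 182, 103, 152 and 157 CPM in WT replicates 1 to 4 and at 772, 765, 799 and 843 CPM in Ucp1Δ/Δ replicates 1 to 4. The 4 Ucp1Δ/Δ mice lay close to each other and far above the WT mice. The mean went from 148 ± 33.0 to 795 ± 35.1 CPM (SD, n = 4), a log2 fold change of 2.42 (standard error 0.19, 95% interval 2.02 to 2.82, adjusted p = 6.13e-07 in edgeR's quasi-likelihood fit). The order of Mfge8 among the Ucp1Δ/Δ mice was not that of the summed macrophage markers. Replicate 2, with the highest marker sum, had the lowest Mfge8 level and replicate 4, with the lowest marker sum, the highest. The Mfge8 levels differed little, with 772 and 765 CPM in replicates 1 and 2, and their order was not tested. Single markers could leave the order of the sum too, C1qa being highest in replicate 1 (293 CPM, beside 284 CPM in replicate 2).

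Gas6 (ENSMUSG00000031451, chromosome 8, from 13465374 to 13494490, minus strand), a vitamin K-dependent ligand of the TAM receptors, was low in WT mice, at 2.04, 3.14, 2.67 and 7.09 CPM, from 4 to 14 counts a mouse. In Ucp1Δ/Δ mice it was at 12.7, 14.0, 11.7 and 13.3 CPM, from 28 to 45 counts. WT replicate 4 lay nearest to the Ucp1Δ/Δ mice, and the groups did not overlap. The log2 fold change was 1.81 (standard error 0.33, 95% interval 1.10 to 2.53, adjusted p = 0.00107 from the same edgeR test). Only 1 WT mouse reached the filter's cut-off, so Gas6 was tested because of its level in the Ucp1Δ/Δ mice. Exons of Gas6 overlap those of Tmem255b on the other strand, and the strand setting of the counting is not given in the sources used here, so reads of the overlap could belong to either gene.

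Pros1 (ENSMUSG00000022912, chromosome 16, from 62854307 to 62929346, plus strand) encodes protein S, an anticoagulant plasma protein that is also a TAM ligand. Its levels were 5.61, 7.17, 7.68 and 5.07 CPM in WT and 16.6, 20.8, 18.8 and 17.6 CPM in Ucp1Δ/Δ mice. Every Ucp1Δ/Δ mouse was above every WT mouse, and the log2 fold change was 1.51 (standard error 0.23, 95% interval 1.01 to 2.005, adjusted p = 0.000259 from edgeR's test). The ratio of Gas6 to Pros1 counts ran from 0.348 to 1.40 in WT and from 0.622 to 0.766 in Ucp1Δ/Δ mice, so the ratios overlapped.

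The 2 TAM receptors among the members gave different calls. Axl (ENSMUSG00000002602, chromosome 7, from 25757273 to 25788705, minus strand), which binds Gas6, was at 10.7, 9.86, 11.02 and 9.62 CPM in WT and at 44.6, 57.3, 37.6 and 35.6 CPM in Ucp1Δ/Δ mice. The WT mice were nearly equal and the Ucp1Δ/Δ mice spread more widely, with replicate 2 highest. The mean went from 10.3 ± 0.668 to 43.8 ± 9.78 CPM (SD, n = 4), a log2 fold change of 2.08 (standard error 0.21, 95% interval 1.63 to 2.54, adjusted p = 6.46e-06 from edgeR's test).

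Mertk (ENSMUSG00000014361, chromosome 2, from 128698956 to 128802894, plus strand), the TAM receptor best known for dead-cell uptake by macrophages, was at 22.4, 6.72, 10.4 and 17.7 CPM in WT and at 36.4, 23.3, 18.4 and 26.6 CPM in Ucp1Δ/Δ mice. WT replicate 1 was above Ucp1Δ/Δ replicate 3, so the groups overlapped. The log2 fold change was 0.90 (standard error 0.32, 95% interval 0.23 to 1.57, unadjusted p = 0.0119 and adjusted p = 0.0549 from edgeR's test), which did not pass the threshold. This call depended on the setting: with the 2 mice highest in skeletal muscle markers left out, it was 1.26 with an adjusted p of 0.0391. Leaving out Ucp1Δ/Δ replicate 3, WT replicate 1 or WT replicate 4 alone gave 1.04, 1.18 and 1.01 (adjusted p = 0.0411, 0.0198 and 0.0429 from edgeR's test), each past the threshold. The count ratio of Axl to Mertk was between 0.477 and 1.47 in WT and between 1.22 and 2.45 in Ucp1Δ/Δ mice, with overlap, and no test of this ratio was made. The third TAM receptor, Tyro3, had at most 3 counts in any mouse and was not tested.

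**Figure D2:**
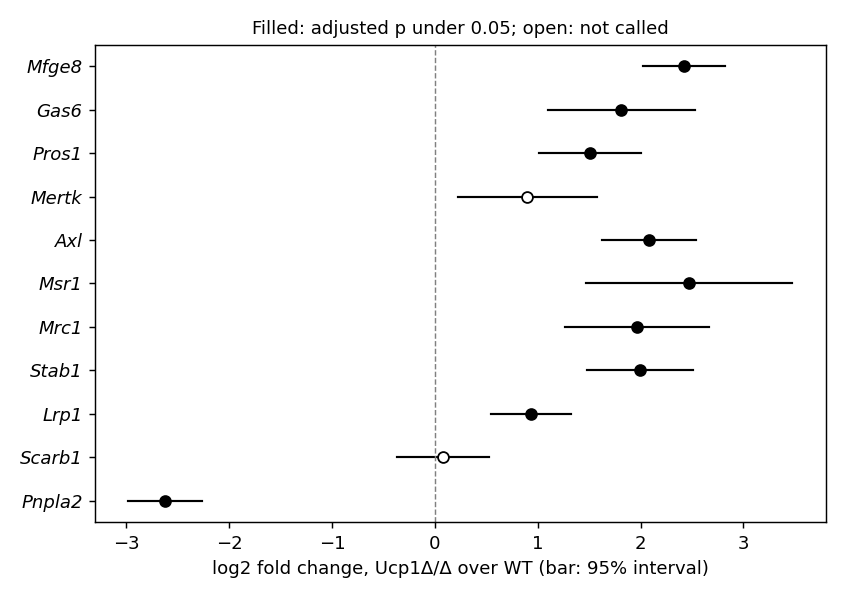
Log2 fold change of Ucp1Δ/Δ over WT mice (horizontal axis) for the 10 members and Pnpla2, with 95% intervals from edgeR's quasi-likelihood fit (n = 4 mice a group); filled points passed an adjusted p of 0.05. The interval of Mertk lies above 0 although its adjusted p is 0.0549, and that of Scarb1 spans 0.

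All 3 scavenger receptors rose. Msr1 (ENSMUSG00000025044, chromosome 8, from 39581685 to 39642673, minus strand), the class A macrophage scavenger receptor for modified lipoproteins, had 2, 8, 8 and 0 counts in WT and 28, 49, 22 and 21 counts in Ucp1Δ/Δ mice. These correspond to 1.02, 3.58, 2.67 and 0 CPM and to 9.91, 15.2, 9.19 and 9.01 CPM, where 0 counts in WT replicate 4 allow up to 1.52 CPM. With under 10 counts in each WT mouse, Msr1 passed the filter through the Ucp1Δ/Δ mice, so its place among the genes tested already rested on the difference. Its log2 fold change of 2.47 had the widest interval of the members (1.47 to 3.48, standard error 0.47, adjusted p = 0.00139 from edgeR's test).

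Mrc1 (ENSMUSG00000026712, chromosome 2, from 14229392 to 14332057, plus strand) encodes the mannose receptor CD206, often used to mark tissue-resident and alternatively activated macrophages. It was at 10.7, 2.69, 10.4 and 13.7 CPM in WT and at 29.0, 49.8, 28.4 and 38.2 CPM in Ucp1Δ/Δ mice. WT replicate 2 was the lowest and Ucp1Δ/Δ replicate 2 the highest, with no overlap between genotypes. The log2 fold change was 1.97 (standard error 0.33, 95% interval 1.27 to 2.67, adjusted p = 0.000484 from edgeR's test). With WT replicate 2 under the cut-off, Mrc1 too passed the filter through the Ucp1Δ/Δ mice.

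Stab1 (ENSMUSG00000042286, chromosome 14, from 31139013 to 31168641, minus strand), stabilin 1, a receptor of macrophages and sinusoidal endothelium that also binds phosphatidylserine, was at 7.65, 5.82, 6.68 and 6.59 CPM in WT and at 25.8, 35.8, 20.5 and 24.0 CPM in Ucp1Δ/Δ mice. The WT mice were nearly equal, as for Axl, and the log2 fold change was 1.99 (standard error 0.24, 95% interval 1.48 to 2.51, adjusted p = 3.02e-05 from edgeR's test). Exons of Stab1 overlap those of Nt5dc2 on the other strand, with the same limit as for Gas6. The count ratio of Mrc1 to Stab1 was 0.462 to 2.08 in WT and 1.12 to 1.59 in Ucp1Δ/Δ mice, with overlap.

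The lipoprotein receptors were the members with the smallest log2 fold changes beside Mertk. Lrp1 (ENSMUSG00000040249, chromosome 10, from 127538161 to 127621148, minus strand), a large endocytic receptor with many ligands and a broad distribution over cell types, was at 52.0, 39.9, 48.4 and 60.3 CPM in WT and at 84.9, 110, 80.2 and 109 CPM in Ucp1Δ/Δ mice. The groups did not overlap, and the mean went from 50.1 ± 8.46 to 95.8 ± 15.4 CPM (SD, n = 4), a log2 fold change of 0.94 (standard error 0.18, 95% interval 0.55 to 1.33, adjusted p = 0.00162 from edgeR's test). The point estimates of Lrp1 and Mertk were close, whereas the standard error of Lrp1 was smaller.

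Scarb1 (ENSMUSG00000037936, chromosome 5, from 125277087 to 125341094, minus strand) encodes SR-BI, the receptor for HDL. Its levels were 31.6, 37.6, 36.1 and 22.3 CPM in WT and 40.7, 25.2, 35.5 and 34.3 CPM in Ucp1Δ/Δ mice. The highest and the lowest value came from different genotypes with full overlap between them, and the log2 fold change was 0.08 (standard error 0.21, 95% interval -0.37 to 0.53, adjusted p = 0.834 from edgeR's test). Ucp1Δ/Δ replicate 2, the highest of all mice in 7 members, was the lowest of its genotype in Scarb1. The count ratio of Lrp1 to Scarb1 was 1.06 to 2.70 in WT and 2.09 to 4.35 in Ucp1Δ/Δ mice, with overlap. The 4 gene pairs whose ratios are given were chosen after their values were seen.

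Since macrophage markers rose as well, each member was set beside them in the same library, as its counts per 100 counts of the 8 markers, which include Csf1r, Lyz2, Cd68 and C1qa. The markers had between 259 and 369 counts in WT and between 1907 and 4412 counts in Ucp1Δ/Δ mice. This is a description with no test. Relative to the markers, 6 members were lower in each Ucp1Δ/Δ mouse than in each WT mouse (Pros1, Mertk, Axl, Stab1, Lrp1 and Scarb1) and 4 overlapped (Mfge8, Gas6, Msr1 and Mrc1). Of all genes tested, 94.2% were lower without overlap on this measure, and the median log2 difference over them was -2.88.

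Scarb1 was nearest to that median, at 17.0 to 29.3 counts per 100 marker counts in WT and 1.84 to 4.20 in Ucp1Δ/Δ mice, a log2 difference of -2.80. Lrp1 went from 28.1 to 45.9 in WT to 7.98 to 13.3 in Ucp1Δ/Δ mice (-1.96) and Mertk from 4.73 to 15.4 to 1.70 to 3.49 (-1.93). Pros1 had a log2 difference of -1.38, Gas6 one of -1.01, Stab1 one of -0.96 and Mrc1 one of -0.78. Single WT mice moved 2 of these: Gas6 was -0.65 without WT replicate 4, and Mrc1 was -1.31 without WT replicate 2 and -0.52 without WT replicate 4. These members lay between the macrophage markers, which set the 0 of this scale, and the median gene.

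Axl was at 7.34, 6.94, 8.94 and 7.34 counts per 100 marker counts in WT and 4.27, 4.17, 4.33 and 4.35 in Ucp1Δ/Δ mice, a log2 difference of -0.85. Its Ucp1Δ/Δ values lay close together, on 83 to 184 Axl counts a mouse, and its WT values spread more, on 19 to 33 counts. Whether a spread this narrow is more than an accident of counting was not tested. Mfge8 was at 72.6 to 125 in WT and 55.8 to 103 in Ucp1Δ/Δ mice, a difference of -0.44 with overlap. With 1 mouse left out, the Mfge8 difference ran from -0.63 (without WT replicate 2) to -0.27 (without Ucp1Δ/Δ replicate 2). With only Adgre1, Csf1r and Cd68 as the denominator it was -0.68. Msr1 spanned 0 to 2.52 in WT and 0.9498 to 1.11 in Ucp1Δ/Δ mice, and its difference of 0.09 became -0.71 when WT replicate 4, with 0 counts, was left out. Lyz2, which may share reads with its close paralog Lyz1, held a large share of the marker counts, and without it the differences shrank to -0.07 for Mfge8, -0.41 for Mrc1, -0.48 for Axl, -0.59 for Stab1 and -0.64 for Gas6. The ratio says nothing of which cells held the transcripts.

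**Figure D3:**
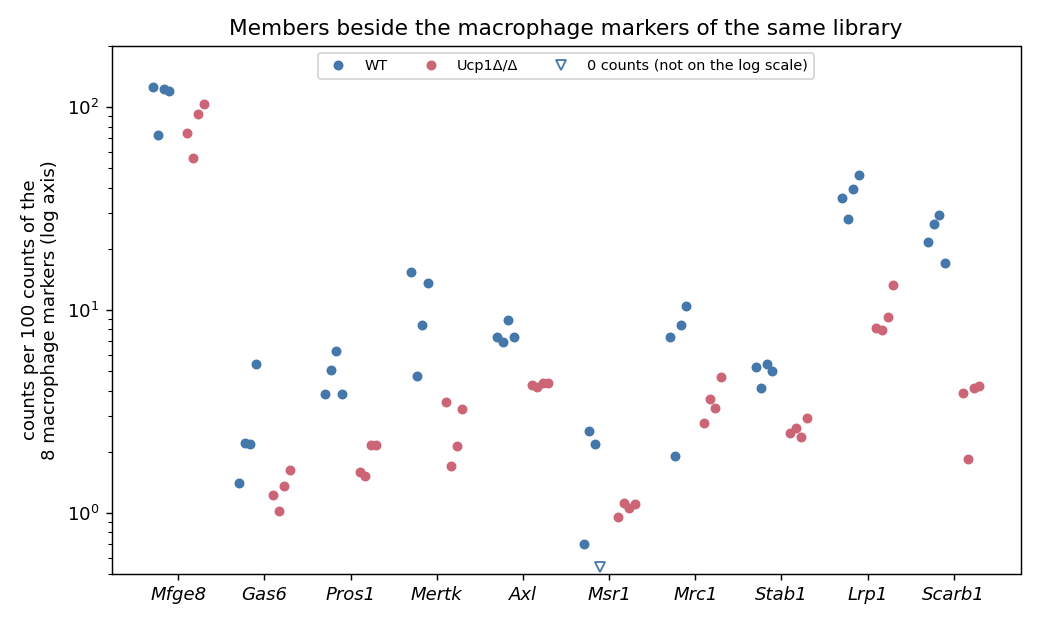
Counts of each member per 100 counts of the 8 macrophage markers in the same library (vertical axis, log scale) for WT (blue) and Ucp1Δ/Δ (red) mice; points are mice and the open triangle marks 0 counts of Msr1 in WT replicate 4. The Axl points of the Ucp1Δ/Δ mice lie between 4.17 and 4.35, and the Scarb1 points lie between 17.0 and 29.3 in WT and between 1.84 and 4.20 in Ucp1Δ/Δ mice.

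Perivascular or resident macrophage markers give a second view. Their sum was between 19.03 and 47.1 CPM in WT and between 84.8 and 117 CPM in Ucp1Δ/Δ mice, with 4 of 6 higher, Cd163 not called and Timd4 not tested. Folr2 had a log2 fold change of 2.91, Cbr2 one of 1.72, F13a1 one of 1.70 and Lyve1 one of 1.18. Folr2, at 0.896 to 2.03 CPM in WT, and F13a1 and Lyve1, low in WT replicate 3, passed the filter through the Ucp1Δ/Δ mice. Their calls rest in part on the difference that let them be tested. Of the lipid-associated macrophage markers 4 of 7 were higher, among them Gpnmb with a log2 fold change of 5.44 and Lgals3 with one of 5.61. Lpl and Fabp5 were not called and Spp1 was not tested. Gpnmb, Trem2 and Cd9 passed the filter through the Ucp1Δ/Δ mice, so their calls rest in part on the difference. The sum of this list, most of it Lpl, overlapped, at 4060 to 4978 CPM in WT and 3269 to 4772 CPM in Ucp1Δ/Δ mice. Of all genes tested, 13.3% were higher. The 4 endothelial markers were not called, at adjusted p from 0.0647 to 0.333 in edgeR's test, and summed to 122 to 154 CPM in WT and 166 to 176 CPM in Ucp1Δ/Δ mice. Neutrophil and lymphocyte markers were at most 6.27 and 2.48 CPM in sum, none was tested, and Cd79a was at 0 in all mice. Which of these cells held the members' transcripts was not tested.

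For each member the genes nearest in pattern were found by the root mean square distance of centred log2 CPM over the 8 mice, among 6428 genes with a mean of at least 10 CPM. Both genotypes enter this distance, so genes with similar log2 fold changes lie near each other, whatever their roles. Axl and Stab1, with log2 fold changes of 2.08 and 1.99, were each other's nearest gene, at a distance of 0.128. The nearest to Lrp1 were Tln1 (0.0878) and Iqgap1 (0.122), which encode proteins of the cortical cytoskeleton, and to Pros1 were Actb (0.161) and Myadm (0.171). Scarb1 was nearest to mt-Atp6 (0.0818) and Cmc2 (0.0860), both of mitochondria. Mertk had Clip1 (0.214) and Acap2 (0.247), Mrc1 had Cadm1 (0.204) and Parp14 (0.206), and Mfge8 had Sept8 (0.201) and Mturn (0.210). Gas6 was nearest to Mxra8 (0.220) and App (0.254). Msr1, the member with the fewest counts, had the most distant neighbours, Emp3 (0.432) and Fyb (0.465). Axl's next neighbour was Fam129b (0.142) and that of Stab1 was Coro1c (0.197).

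A wider list of 86 genes of dead-cell uptake and scavenging was then examined, of which 51 were tested. Of these, 20 were higher, 3 lower and 28 not called, with a median log2 fold change of 0.51, where 13.3% of all genes tested were higher and 7.63% lower. Of the 20 higher, 10 reached the filter's cut-off in all 4 mice of the Ucp1Δ/Δ genotype only, namely Cd68, Cxcl16, P2ry6, Sirpa, Cd300lb, Thbs1, Anxa1, Dock2, Rac2 and Gulp1. Their calls, and the counts and median that include them, rest in part on the difference that let them be tested. Some genes of this list, such as Cd68 and C1qa, are also among the macrophage markers. Genes named from it follow a rule, except Thbs1, Anxa1, C4b, Calr, Itgb5, Itgav, Dock2, Rac2, Gulp1, Rhog, Cd47 and Ano6, which were named after their values were seen, to account for the counts.

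Of 9 opsonins and bridging proteins 7 were tested and 6 were higher. The complement component C1q, which coats dying cells, rose in all its chains: C1qa from 25.2 ± 5.92 to 234 ± 63.7 CPM (SD, n = 4, log2 fold change 3.22), C1qb by 3.19 and C1qc by 3.11 on the log2 scale. Thbs1 (2.86), Anxa1 (2.74) and C4b (1.39) were also higher, whereas Calr, the chaperone calreticulin, had a log2 fold change of 0.12 and was not called. Of 13 receptors for phosphatidylserine and apoptotic cells only 3 had enough counts. Cd300lb, an activating receptor of myeloid cells, had 1, 1, 0 and 1 counts in WT and 13, 28, 10 and 11 counts in Ucp1Δ/Δ mice. The pooled counts gave a ratio of 17.5 with an exact 95% counting interval of 5.73 to 87.4, which holds no spread between mice. The log2 fold change of edgeR's fit, which includes that spread, was 3.91 (95% interval 2.64 to 5.17). Itgb5, the integrin subunit that pairs with Itgav to bind MFG-E8, was higher by 1.05 on the log2 scale, and Itgav was not called. Timd4, a phosphatidylserine receptor of resident macrophages, had at most 4 counts in any mouse.

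In the engulfment machinery 4 of 12 tested genes were higher, beside 13.3% of all genes, and 3 of these 4 passed the filter through the Ucp1Δ/Δ mice: Dock2 (log2 fold change 2.10) and Rac2 (mean 3.72 CPM in WT and 14.7 CPM in Ucp1Δ/Δ mice), which act in blood cells, the adaptor Gulp1 (means 2.92 and 11.6 CPM) and Rhog (log2 fold change 0.92). The other 8, among them genes expressed broadly such as Rac1, were not called. Of the 7 nuclear receptors and factors 2 were higher and 5 were not called. The sheddases Adam10 and Adam17, which cleave receptors such as MerTK from the cell surface, were not called, with log2 fold changes of 0.07 and 0.56.

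Of the other scavenger and endocytic receptors 11 were tested, with 2 higher, 1 lower and 8 not called, shares near those of all genes tested (13.3% higher and 7.63% lower). Cd68, a lysosomal glycoprotein of macrophages, rose from 2.04, 4.48, 1.67 and 3.04 CPM in WT to 64.4, 108, 50.1 and 55.4 CPM in Ucp1Δ/Δ mice (log2 fold change 4.64, adjusted p = 5.16e-07 from edgeR's test). No WT mouse reached the filter's cut-off for Cd68. Cxcl16, both a chemokine and a receptor for oxidised lipoproteins, was higher by 2.53. Vldlr, the VLDL receptor, was lower, at 156, 167, 133 and 160 CPM in WT and 63.3, 66.9, 62.7 and 72.1 CPM in Ucp1Δ/Δ mice, without overlap (log2 fold change -1.21, adjusted p = 5.61e-05 from edgeR's test). It thus moved opposite to Lrp1, of the same receptor family.

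Cd36, the fatty acid translocase and class B scavenger receptor, showed no detectable difference, at 534 ± 52.3 CPM in WT and 534 ± 13.8 CPM in Ucp1Δ/Δ mice (SD, n = 4), with a 95% interval of the log2 fold change from -0.32 to 0.32 (adjusted p = 0.995 from edgeR's test). Like Scarb1, the other class B receptor among the genes above, it was expressed in WT tissue and was not called. Cd163, the haemoglobin scavenger receptor, was at 5.61, 8.51, 4.01 and 8.11 CPM in WT and 12.02, 14.9, 6.69 and 13.7 CPM in Ucp1Δ/Δ mice (log2 fold change 0.88, adjusted p = 0.0642 from edgeR's test), with overlap. This call too depended on the setting, with adjusted p from 0.0271 to 0.288 over the other settings, and it was passed without WT replicate 2 (1.04, adjusted p = 0.0439) or Ucp1Δ/Δ replicate 3 (1.083, adjusted p = 0.0210).

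Of the find-me, do-not-eat-me and scramblase genes 4 of 9 tested were higher. P2ry6, a nucleotide receptor of phagocytes, was higher by 3.35 on the log2 scale, and Sirpa, which receives the do-not-eat-me signal, by 2.52. Cd47, the ligand of Sirpa, went from 48.6 ± 10.6 to 82.0 ± 13.4 CPM (SD, n = 4, log2 fold change 0.76), and the scramblase Ano6 was higher by 1.11. Tmem30a, the partner subunit of flippases that keep phosphatidylserine on the inner leaflet, was lower, going from 91.6 ± 9.23 to 58.7 ± 6.27 CPM (SD, n = 4, log2 fold change -0.64, adjusted p = 0.00964 from edgeR's test). It did not pass the threshold without the 2 mice highest in skeletal muscle markers (adjusted p = 0.0725).

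**Figure D4:**
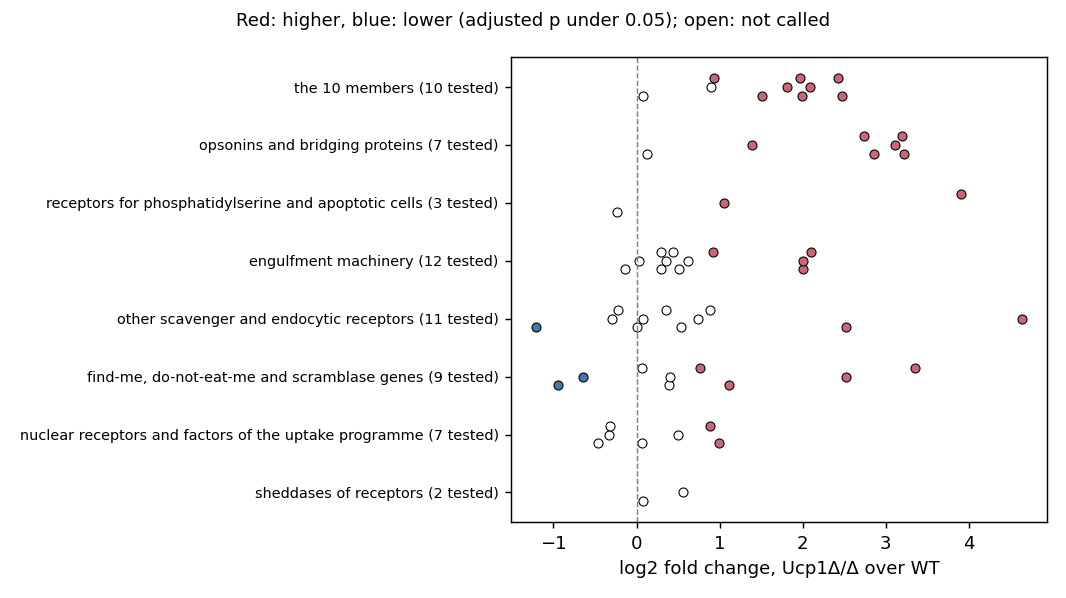
Log2 fold change of Ucp1Δ/Δ over WT mice (horizontal axis) for each tested gene of the 10 members and of 7 role groups of the wider list (rows; vertical offsets within a row carry no value). Red points were called higher, blue lower and open points were not called (edgeR's test); opsonins and bridging proteins have 6 of 7 called higher, and the 3 genes called lower, Vldlr and Tmem30a among them, lie left of 0.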

How the data were processed

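Single-end digital mRNA libraries were made from BAT of 4 WT and 4 Ucp1Δ/Δ mice. The authors deposited raw counts per Ensembl gene, 1 column per mouse; the study's methods name bbduk, STAR, HTseq-counts and mm10, whereas the submitters' processing notes name Trimmomatic, HISAT2 and DESeq2 with GRCm38/mm10. The annotation release and the strand setting are not given in the sources used here. The deposited log2 values equal the log2 of the scaled count plus 1 and were used in 1 alternative. Nothing upstream of the counts was varied.

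Genotype and replicate number came from the sample titles. GENCODE annotation of GRCm38 gave symbols, positions and overlaps of exons, and 30934 of 31053 identifiers had a symbol. After filterByExpr with default settings and TMM scaling, which sets the library size of CPM, genotype was tested alone with edgeR's quasi-likelihood test, and p-values were adjusted by Benjamini-Hochberg over all genes tested (R 4.3.3, edgeR 4.0.16, limma 3.58.1, DESeq2 1.42.0). Standard errors are the log2 fold change over the square root of F. Ratios to macrophage markers used a pseudocount of 0.5 on the log2 scale. Chi-square per degree of freedom between mice of 1 genotype was 4.69 to 23.2, which leaves no duplicate libraries.

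The members and lists were chosen with earlier results of these data known. The rule named all members, Pnpla2, up to 8 called genes per direction of the wider list by adjusted p, Cd36, Timd4, Tyro3 and Cd163, and the 2 nearest genes of each member. Clec7a was not analysed here. Some genes counted in the lists are not reported here by name. The p-values measure the spread between these mice only. Alternatives were other scalings, filters and tests, the replicate block, other marker denominators and each mouse left out.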

Additional observations from a re-analysis of the deposited data

Results flagged for a closer look

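In 3 of 48 groups of 4 mice screened, 1 mouse lay apart from the other 3 by Dixon's gap, the distance to the nearest mouse over the whole range, where about 2.4 are expected by chance. None was a group of the 10 members. For Sirpa in Ucp1Δ/Δ replicate 2 it was 0.832, the log2 CPM being 5.54 there and 4.68 to 4.82 elsewhere in the genotype. Cd300lb had a gap of 0.840 in Ucp1Δ/Δ replicate 2 (log2 CPM 3.25, beside 2.32 to 2.47) and of 0.902 in WT replicate 3 (log2 CPM -0.32, beside 0.32 to 0.39). The latter sets 0 counts apart from 1 count in each other WT mouse. Ucp1Δ/Δ replicate 2 also had the highest macrophage and skeletal muscle marker sums, and their part in these values was not tested.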

How the results depend on the processing

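The 8 members called higher kept their call in each alternative that tested them, and 8 to 9 members were called with a mouse left out. Mertk, at 0.90, was called with total counts only (1.03, adjusted p = 0.0295), with at least 1 count in any mouse (0.88, adjusted p = 0.00540), with at least 10 counts in every mouse (0.97, adjusted p = 0.0429), with limma voom (0.87, adjusted p = 0.0409) and without the mouse of each genotype highest in skeletal muscle markers (1.26, adjusted p = 0.0391), the last chosen after seeing the data. With a mouse left out Mertk ran from 0.66 to 1.18, called in 3 of these fits, those lacking Ucp1Δ/Δ replicate 3, WT replicate 1 or WT replicate 4. Scarb1 ran from -0.065 to 0.21, below 0 without WT replicate 4 or Ucp1Δ/Δ replicate 1. Cd36 fell below 0 with limma trend (-0.032), the Wald test of DESeq2 (-0.036), its size factors (-0.017), the filter of 1 count in any mouse (-0.023) and without the mice highest in muscle markers (-0.033), and ran from -0.068 to 0.032 with 1 mouse left out. Relative to macrophage markers, Msr1 was -0.15 with 3 markers as the denominator and from -0.71 to 0.56 with 1 mouse left out. Axl was -1.09 and Stab1 -1.20 with 3 markers, and without Lyz2 Axl was -0.48, Stab1 -0.59, Pros1 -1.004 and Lrp1 -1.58.

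The filter of at least 10 counts in every mouse removed Gas6, Msr1 and Mrc1, left 6 members higher, 12 higher genes of the wider list (against 20) and 746 higher and 449 lower genes in all (against 1191 and 681). Without the mice highest in muscle markers 1 gene of the list was lower, against 3, and 279 genes in all. With a mouse left out the list gave 17 to 21 higher and 3 to 4 lower genes, and all genes 945 to 1304 higher and 400 to 851 lower, the fewest without Ucp1Δ/Δ replicate 2. Total counts only gave 1478 higher and 404 lower genes, so 78.5% of calls were higher against 63.6%, and moved the median of all genes from -0.0087 to 0.13 on the log2 scale. For none of these shifts was the cause tested. Same-numbered mice are different animals, and the correlations of their deviations, -0.087, -0.196, 0.304 and 0.241, do not pair them. With the replicate block 1138 genes were higher and 581 lower, and Mertk was 0.93 (adjusted p = 0.0163). At this depth 35 genes of the list could not be tested.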
